A study of Mus musculus with 6 samples.

Results

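The 55 replication-dependent histone genes were the protein-coding rows named H1f1 to H1f5, or H2ac, H2bc, H3c or H4c followed by a digit, among 22355 rows in all. They comprised 5 genes of the linker histone H1 and 11, 17, 10 and 12 genes of the core histones H2A, H2B, H3 and H4, and all were kept whatever their level. RNA was sequenced in 6 libraries of MEFs, fibroblasts grown in culture from mouse embryos. In 3 libraries the cells had been transfected with siHk2, a small interfering RNA against the hexokinase gene Hk2, and in 3 with a negative control siRNA (siControl). All libraries were enriched for polyadenylated RNA on oligo(dT) beads, and the labels give no strain, passage, dose or time after transfection. The labels do not say that the libraries came from separate cultures, so p-values measure only the spread between these libraries.

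Replication-dependent histone genes supply the histones that package newly copied DNA, and in cycling cells their messages peak in S phase. Their messages end in a conserved stem-loop instead of a poly(A) tail: the protein Slbp binds the stem-loop, and the U7 small nuclear ribonucleoprotein and a cleavage complex cut just after it. A smaller fraction of these messages is polyadenylated, from signals further downstream, and oligo(dT) selection captures mainly that fraction. The values here are therefore levels of captured histone message, and how they relate to the total was not measured. Since whole cultures were sequenced, a larger share of cells with these messages and more message per cell cannot be told apart.

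Values are in TPM, a level per transcript length that is scaled to the same total in each library, and differences are log2 fold changes of siHk2 over siControl on log2(TPM + 1), which understate the change of low genes. A gene was called when its adjusted p in limma (Benjamini-Hochberg over all 22355 rows) was under 0.05. Hk2 itself was at 22.4, 21.4 and 21.8 TPM in siHk2 libraries 1, 2 and 3, against 57.1, 62.5 and 58.9 TPM in siControl libraries 4, 5 and 6 (numbered as in the table), a log2 fold change of -1.40 (adjusted p = 0.00119, SE 0.05). Between 18419 and 18757 rows were above 0 in a library. TPM keeps no depth, so the read depth behind a value is unknown. Of 12 fibroblast markers, 0 were called in limma (6 had an unadjusted p under 0.05); Vim, Col1a2 and Fn1 were at 374 TPM or more in every library, while Thy1, Dcn, Lum and Postn were at 0.54 TPM or less. Of 6 macrophage markers, 0 were called in limma (0 with an unadjusted p under 0.05); the list summed to 50.8 to 56.2 TPM in siHk2 and 51.5 to 70.4 TPM in siControl. Cd68 was at 36.9 ± 1.76 TPM in siHk2 and 44.0 ± 10.9 TPM in siControl (SD, n = 3 each), and Cd14 at 14.5 to 17.8 TPM in siHk2 and 11 to 15.6 TPM in siControl, with Ptprc and Adgre1 at 0.2 TPM or less in every library. The summed level of 5 endothelial markers was 0.83 TPM or less. Of 6 epithelial markers 1 rose, Krt8 (0.93 to 1.97 TPM in siHk2, 0 to 0.33 TPM in siControl); the list summed to 1.71 to 2.88 TPM in siHk2 and 1.13 to 2.17 TPM in siControl, with Epcam and Cdh1 at 0.09 TPM or less. Of 5 neuron and glia markers 1 rose, S100b (143 ± 6.78 TPM in siHk2, 90.2 ± 2.56 TPM in siControl; SD, n = 3 each); the list summed to 137 to 149.6 TPM in siHk2 and 90.6 to 95.6 TPM in siControl, nearly all of it S100b, with Map2 at 0.01 TPM or less. The part of such cells in the histone differences was not tested. Of 4 measured muscle markers, 0 were called in limma (0 with an unadjusted p under 0.05), although Des and Tnnt2 were at 17.2 TPM or more in every library.

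The captured histone message was higher in siHk2 fibroblasts, and most of it came from a linker histone gene and a core histone gene. Summed over the 55 genes it was 562, 565 and 567 TPM in siHk2 libraries 1, 2 and 3, against 196, 175 and 236 TPM in siControl libraries 4, 5 and 6. The siHk2 libraries lay close together, all above the siControl libraries, among which library 5 was lowest and library 6 highest. The group means were 565 ± 2.47 TPM in siHk2 and 203 ± 31.1 TPM in siControl (SD, n = 3 each), a ratio of 2.79. H1f2, which encodes linker histone H1.2, and H2bc4, which encodes a core histone H2B, together made up 69.3 to 69.8% of the sum in siHk2 libraries and 54.4 to 62.1% in siControl libraries. These 2 genes accounted for 75.7% of the difference between the group sums. Without them the sum was 172 ± 2.04 TPM in siHk2 and 83.7 ± 11.6 TPM in siControl (SD, n = 3 each), still 2.05 times higher.

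**Figure D1:**
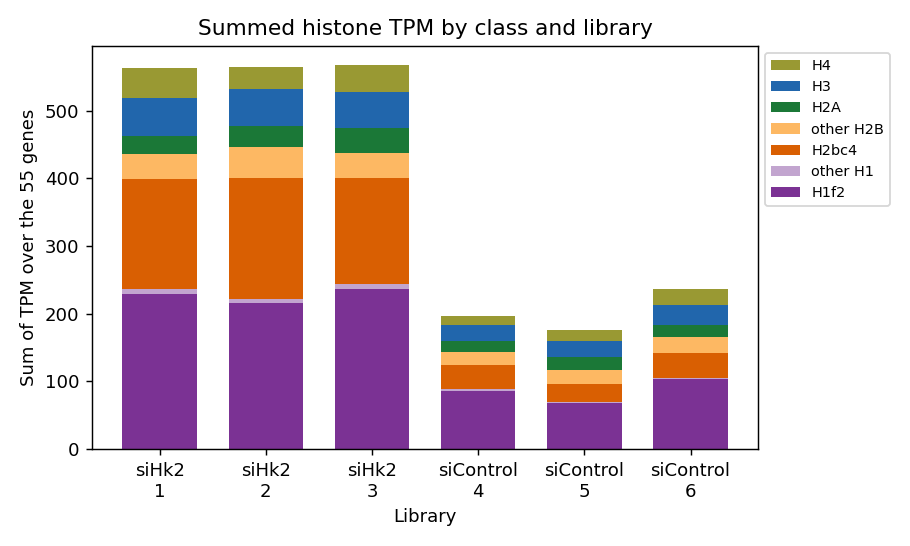
Summed TPM of the 55 replication-dependent histone genes in each library (bars; siHk2 1 to 3, siControl 4 to 6), stacked by class with H1f2 and H2bc4 drawn apart. The siHk2 bars reach 562 to 567 TPM and the siControl bars 175 to 236 TPM, and H1f2 and H2bc4 form the 2 largest segments in each siHk2 bar.

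Of the 55 genes, 12 rose and 0 fell in siHk2 in limma (0 fell at an unadjusted p under 0.05, and 22 rose), where 5.31% of all rows were called, 2.24% higher and 3.06% lower. The 12 were 3 of 5 H1 genes, 2 of 11 H2A genes, 6 of 17 H2B genes, 1 of 10 H3 genes and 0 of 12 H4 genes. In 21 genes every siHk2 library lay above every siControl library, against 12.4% of all rows, and in 0 genes every siHk2 library lay below, against 11.8% of all rows. Unadjusted p-values under 0.05 were common in the whole table. Ranked by p in limma, H2ac7 (unadjusted p = 0.0291) was at 3536 and H2ac15 (unadjusted p = 0.0580) at 4821 of 22355 rows. Counts at that threshold, here and below, are therefore to be read beside many such rows. The median log2 fold change was 0.45 over the 55 genes and 0.0084 over all rows. The fold change was above 0 in 40 genes and below 0 in 15. Of 27 genes that averaged 1 TPM or more over the 6 libraries, 9 rose and 0 fell, where 3.51% of rows at that level were called higher and 4.92% lower; of the 28 below that level 3 rose, where the share was 0.366%. Every siHk2 library lay above every siControl library in 15 of the 27, against 17.6% of rows at that level, and in 6 of the 28, against 4.59%. The number called depended on the libraries: it was 5, 6 and 4 without siHk2 library 1, 2 and 3, and 5, 9 and 14 without siControl library 4, 5 and 6, while the number of rows called higher in the whole table, 501 with all libraries, was 52 to 303 in the first 5 of these fits and 609 in the last. In each of these fits 0 histone genes were called lower.

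**Figure D2:**
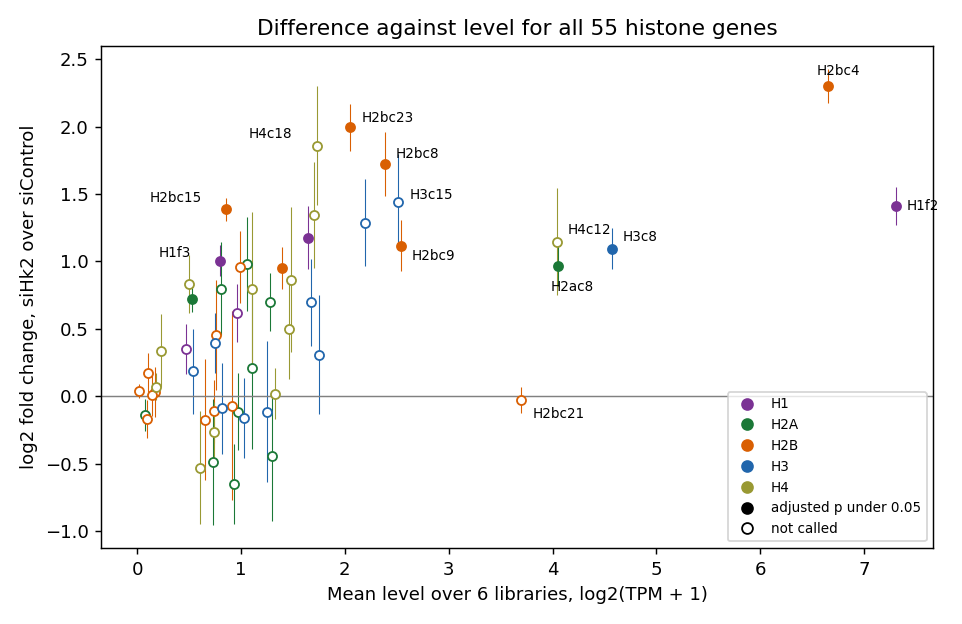
Log2 fold change of siHk2 over siControl (vertical axis, with standard errors) against the mean level over 6 libraries as log2(TPM + 1) (horizontal axis) for the 55 histone genes, coloured by class; filled points have an adjusted p under 0.05. H2bc4 and H1f2 stand apart by level, H2bc21 lies near 0, and all filled points lie above 0.

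Among the linker histones, which bind the DNA where it enters and leaves the nucleosome, H1f2 (chr13:23922791-23924350, GRCm39) was at 229, 216 and 237 TPM in siHk2, against 86.4, 68.6 and 103 TPM in siControl. The groups were far apart, with the lowest siHk2 library well above the highest siControl library (log2 fold change 1.41, SE 0.14, adjusted p = 0.00748), and the call was lost when siHk2 library 3 was left out (adjusted p = 0.0522). H1f5, the H1.5 gene, was at 3.37, 3 and 3.55 TPM in siHk2, against 0.88, 0.43 and 1.56 TPM in siControl. It rose with an adjusted p of 0.0434, just under the threshold, and lost the call in 9 of 15 alternative settings, among them each fit without a siHk2 library or without siControl library 4 or 5. H1f3, the H1.3 gene, was at 1.52, 1.23 and 1.23 TPM in siHk2, against 0.18, 0.04 and 0.26 TPM in siControl (adjusted p = 0.0110; not called without siHk2 library 3 or siControl library 4). H1f4, the H1.4 gene, was at 0.76, 1.36 and 2 TPM in siHk2, against 0.43, 0.42 and 0.7 TPM in siControl, with groups that did not overlap and an adjusted p of 0.172. H1f1 was under 1 TPM in all libraries, with overlapping groups. All 5 genes had a fold change above 0. The sum of the class was 234 ± 11.5 TPM in siHk2 and 87.8 ± 17.7 TPM in siControl (SD, n = 3 each), a ratio of 2.66. The replacement linker histone H1f0, whose polyadenylated message is made outside S phase as well, was at 842, 827 and 844 TPM in siHk2, against 945, 870 and 900 TPM in siControl (adjusted p = 0.281). H1f2 was thus at 0.273, 0.261 and 0.281 of the H1f0 level in siHk2 libraries, against 0.0915, 0.0789 and 0.114 of it in siControl libraries.

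Among the H2B genes, H2bc4 (chr13:23868182-23876891, GRCm39) had the largest log2 fold change of all 22355 rows in this fit. It was at 162, 179 and 156 TPM in siHk2, against 35.5, 26.7 and 36.9 TPM in siControl. The siHk2 mean was 5.01 times the siControl mean (log2 fold change 2.30, SE 0.13, adjusted p = 0.00224), and the call held with each library left out in turn. H2bc23 was at 4.67, 6.53 and 5.73 TPM in siHk2, against 0.57, 0.56 and 0.86 TPM in siControl (log2 fold change 1.99, adjusted p = 0.00525), and its call held in the same way. H2bc8 (chr13:23755570-23756187, GRCm39) was at 8.45, 8.19 and 4.59 TPM in siHk2, against 1.59, 1.31 and 1.25 TPM in siControl. Its siHk2 libraries spread widely, yet the lowest was well above every siControl library (log2 fold change 1.72, adjusted p = 0.0166; not called without siHk2 library 1 or 2 or siControl library 4). H2bc9 was at 6.97, 7.12 and 6.64 TPM in siHk2, against 2.64, 1.92 and 3.56 TPM in siControl (adjusted p = 0.0295; not called without any one of the siHk2 libraries or siControl library 4). H2bc6 was at 2.58, 2.19 and 2.6 TPM in siHk2, against 0.81, 0.54 and 1.04 TPM in siControl (adjusted p = 0.0274; not called without any one of the siHk2 libraries or siControl library 4 or 5). The groups did not overlap in either gene, and the siControl libraries spread more, relative to their mean, than the siHk2 libraries. H2bc15 was at 1.65, 1.59 and 1.6 TPM in siHk2 and listed at 0 in the 3 siControl libraries (adjusted p = 0.00224).

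H2bc21 was the exception among the better measured H2B genes. This gene on chromosome 3 encodes H2BE, a variant known from olfactory neurons. It was at 11.6, 12 and 11.9 TPM in siHk2, against 10.7, 13.5 and 12.2 TPM in siControl, with the siHk2 libraries inside the siControl range (log2 fold change -0.028, 95% interval -0.27 to 0.21, adjusted p = 0.899). Of the remaining H2B genes, H2bc7 had every siHk2 library (0.91, 1.76 and 2.2 TPM) above every siControl library (0.36, 0.7 and 0 TPM), with an adjusted p of 0.106. In the others the groups overlapped. The class sum was 206 ± 16.3 TPM in siHk2 and 54.3 ± 6.30 TPM in siControl (SD, n = 3 each), a ratio of 3.80, the highest of the 5 classes. Without H2bc4 the sum was 40.4 ± 4.76 TPM in siHk2 and 21.3 ± 1.67 TPM in siControl (SD, n = 3 each). That is a ratio of 1.90, below those of H1, H3 and H4 with all their genes. Leaving out H2bc21 as well gave 28.6 ± 4.65 TPM in siHk2 and 9.10 ± 1.77 TPM in siControl. The ratio was then 3.14. H2bc21 had near-equal group means, so leaving it out was bound to raise the ratio, which is not comparable with those of the other classes. For H1 without H1f2 the ratio was 3.54.

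Among the H2A genes, which encode the core histone that pairs with H2B, 2 rose. H2ac8 (chr13:23754691-23755394, GRCm39) held most of the class and was at 19.6, 18.1 and 25.1 TPM in siHk2, against 8.87, 9.86 and 11.8 TPM in siControl. Its siHk2 mean was 2.06 times the siControl mean (log2 fold change 0.97, SE 0.15, adjusted p = 0.0224), and the call was lost without any one of the siHk2 libraries or siControl library 4 or 5. H2ac6 was called at a low level, 0.84, 0.82 and 0.73 TPM in siHk2, against 0, 0.2 and 0.08 TPM in siControl (adjusted p = 0.0150; not called without any one of the siHk2 libraries or siControl library 4). H2ac25 was at 1.36, 1.89 and 2.83 TPM in siHk2, against 0.92, 0.6 and 0.99 TPM in siControl, without overlap (adjusted p = 0.128); it lies wholly within the gene Trim17 on the same strand, so reads may not be separable. H2ac7 was at 0.73, 2.83 and 1.77 TPM in siHk2, against 0.86, 0.28 and 0 TPM in siControl, and the groups overlapped. H2ac13 was at 0, 3.09 and 1.03 TPM in siHk2, against 0, 0.82 and 1.96 TPM in siControl. H2ac20 was at 0, 2.34 and 1.17 TPM in siHk2, against 0.95, 2.79 and 1.48 TPM in siControl. Neither of the last pair separated the groups. The remaining 5 H2A genes had a mean under 1 TPM and overlapping groups. The class sum was 31.0 ± 5.46 TPM in siHk2 and 17.9 ± 1.01 TPM in siControl (SD, n = 3 each), a ratio of 1.73.

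**Figure D3:**
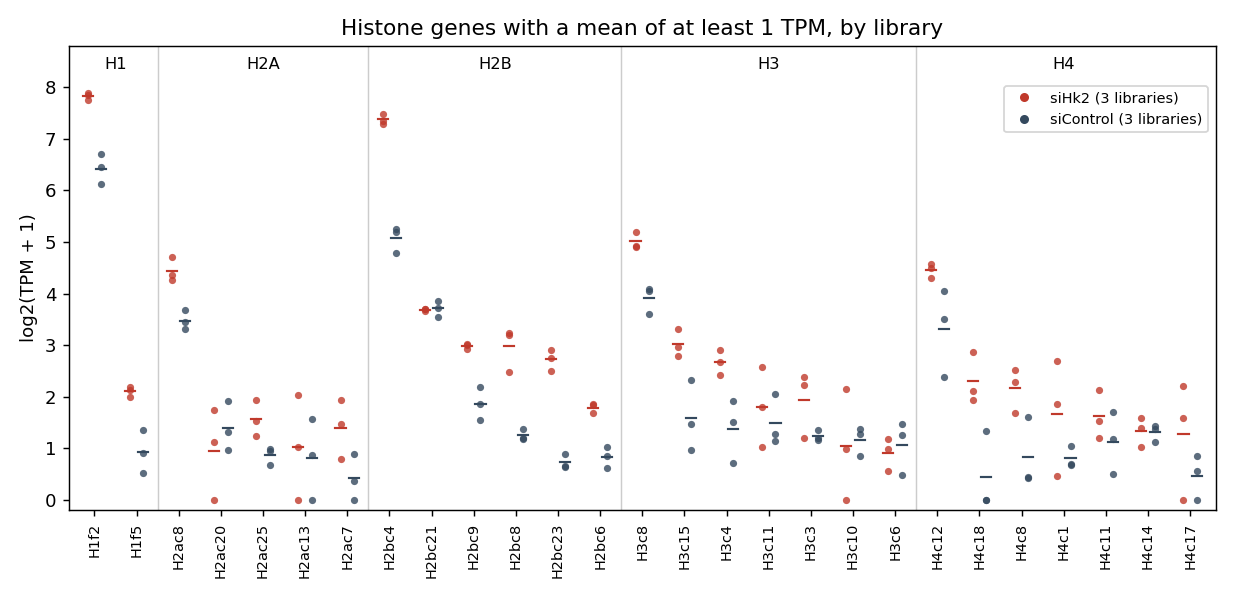
Level of the 27 histone genes that averaged 1 TPM or more, as log2(TPM + 1), in each siHk2 library (left of each pair) and siControl library (right of each pair); horizontal bars are group means on this scale. The groups are well apart in H1f2, H2bc4, H2bc23, H2bc8, H3c8 and H2ac8, coincide in H2bc21, and overlap in most H3 and H4 genes at low level.

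Among the H3 genes, H3c8 (chr13:23719592-23720121, GRCm39) was at 35.5, 29.4 and 29.1 TPM in siHk2, against 11.2, 15.5 and 16 TPM in siControl. It was the one H3 gene that rose (log2 fold change 1.09, SE 0.15, adjusted p = 0.0165), and it lost the call without any one of the siHk2 libraries. H3c15, on chromosome 3, was at 5.94, 8.93 and 6.76 TPM in siHk2, against 1.77, 0.95 and 3.97 TPM in siControl (adjusted p = 0.0779). H3c4 was at 6.52, 5.35 and 4.38 TPM in siHk2, against 2.76, 0.65 and 1.85 TPM in siControl (adjusted p = 0.0818). In both, the siControl libraries spread over several-fold and no library of one group reached the other; both passed when rows with a mean under 1 TPM were left out of the fit. H3c3 was at 3.65, 1.29 and 4.18 TPM in siHk2, against 1.3, 1.54 and 1.22 TPM in siControl. H3c11 was at 1.02, 4.93 and 2.47 TPM in siHk2, against 1.2, 3.14 and 1.41 TPM in siControl. The groups overlapped in both. H3c10 was at 0, 0.99 and 3.45 TPM in siHk2, against 1.6, 0.79 and 1.41 TPM in siControl. H3c6 was at 1.25, 0.48 and 0.97 TPM in siHk2, against 1.77, 0.39 and 1.38 TPM in siControl. These 2 also overlapped, as did H3c1, H3c2 and H3c7, each with a mean under 1 TPM. The class sum was 54.4 ± 2.04 TPM in siHk2 and 25.5 ± 2.81 TPM in siControl (SD, n = 3 each), a ratio of 2.13.

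No H4 gene was called in limma. Of the 12 H4 genes, 4 had an unadjusted p under 0.05, as many rows of the whole table did. Every siHk2 library lay above every siControl library in 4 of the 12, against 12.4% of all rows. H4c12 held most of the class, at 21.4, 18.8 and 22.7 TPM in siHk2, against 4.21, 10.4 and 15.5 TPM in siControl. Its siControl libraries differed widely among themselves, and the log2 fold change was 1.15 (SE 0.40, 95% interval 0.18 to 2.11), with an adjusted p of 0.174. H4c18 was at 6.32, 2.83 and 3.3 TPM in siHk2, against 1.53, 0 and 0 TPM in siControl (adjusted p = 0.0688). H4c8 was at 2.22, 4.74 and 3.88 TPM in siHk2, against 0.35, 0.34 and 2.05 TPM in siControl (adjusted p = 0.116). H4c3, with a mean under 1 TPM, was at 1.02, 0.25 and 1.24 TPM in siHk2 and listed at 0 in the 3 siControl libraries (adjusted p = 0.0878). These 4 were the genes whose groups did not overlap. H4c1 was at 5.43, 2.63 and 0.38 TPM in siHk2, against 0.61, 0.6 and 1.07 TPM in siControl. H4c11 was at 1.89, 1.31 and 3.4 TPM in siHk2, against 1.27, 0.42 and 2.24 TPM in siControl. The groups overlapped in both. H4c17 was at 3.64, 0 and 2.02 TPM in siHk2, against 0, 0.8 and 0.48 TPM in siControl, again with overlap. H4c14 was at 1.03, 1.62 and 1.99 TPM in siHk2, against 1.71, 1.58 and 1.18 TPM in siControl, with overlapping groups. The class sum was 39.3 ± 5.33 TPM in siHk2 and 17.2 ± 5.80 TPM in siControl (SD, n = 3 each), a ratio of 2.29, and the siHk2 libraries (33.5 to 44.0 TPM) all lay above the siControl libraries (12.9 to 23.8 TPM).

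The 28 genes with a mean under 1 TPM reached at most 2.39 TPM in a siHk2 library and 2.91 TPM in a siControl library, both in H2bc3. Together they contributed 1.70% of the difference in the histone sum. Over the 55 genes, 27 were listed at 0 in at least 1 library; 5 (H2bc11, H2bc15, H2bc24, H4c2 and H4c3) were listed at 0 in the 3 siControl libraries and 2 (H2ac23 and H2bc13) in the 3 siHk2 libraries. Apart from H2bc15 and H4c3, each of these had 1 library above 0 in all.

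By position, 47 of the 55 genes lie on chromosome 13, 4 on chromosome 3, 3 on chromosome 11 and 1 on chromosome 6, and the 12 called genes are all on chromosome 13. The chromosome 13 genes summed to 540.1 ± 3.08 TPM in siHk2 and 183 ± 30.3 TPM in siControl, a ratio of 2.94, and the 4 chromosome 3 genes to 21.8 ± 3.13 TPM in siHk2 and 17.6 ± 2.13 TPM in siControl, a ratio of 1.24 (SD, n = 3 each). H1f2 and H2bc4 together held 393 TPM of the chromosome 13 sum in siHk2 and 119 TPM in siControl. Of the chromosome 3 sum, H2bc21 held 11.8 TPM in siHk2 and 12.1 TPM in siControl. H3c15 held 7.21 TPM of it in siHk2 and 2.23 TPM in siControl. The difference between chromosomes was not tested. On chromosome 13 the genes form 3 blocks, split where the starts of neighbouring genes lie more than 200000 bases apart. In the block of 17 genes from H2bc13 to H2bc24, 3 were called; in the pair H2bc12 and H2bc11, 0 were called in limma (0 with an unadjusted p under 0.05); in the block of 28 genes from H4c8 to H1f1, 9 were called. Called genes stood beside genes with overlapping groups: H1f3 lies between H4c6 and H3c6, whose fold changes were -0.53 and -0.16 on the log2 scale.

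**Figure D4:**
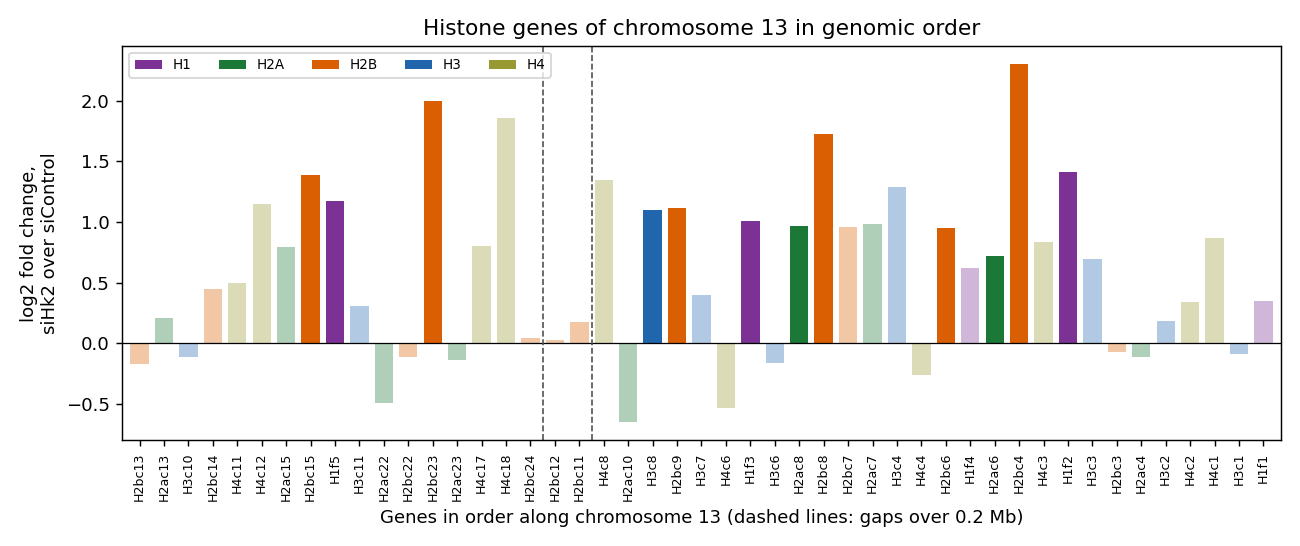
Log2 fold change of siHk2 over siControl for the 47 histone genes of chromosome 13 in their genomic order, coloured by class; solid bars have an adjusted p under 0.05, pale bars do not, and dashed lines mark the gaps between the 3 blocks. Called genes are interspersed with genes near or below 0 in both large blocks.

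Many H2A and H2B genes sit head to head and share the stretch between their starts. There were 9 such pairs with starts 175 to 295 bases apart. Both genes rose in H2ac8 with H2bc8 and in H2ac6 with H2bc4, 1 gene rose in H2ac15 with H2bc15 and in H2bc23 with H2ac23, and neither gene was called in the other 5 pairs, which include H2ac20 with H2bc21. In the 2 pairs where both genes rose the levels were unequal. H2ac8 was at 2.96 times the level of H2bc8 in siHk2 and 7.35 times in siControl. H2ac6 was at 0.00481 of the level of H2bc4 in siHk2 and 0.00283 in siControl. Levels were near equal in H2bc7 with H2ac7, at a ratio of 0.914 in siHk2 and 0.930 in siControl. Sequence shared by H2ac8 and H2bc8, and that on the H2ac6 side of its pair with H2bc4, are shown because both genes of each pair rose. They are the 150 bases before the annotated start of H2bc8 (chr13:23571250-23571399, plus strand) and of H2ac6 (chr13:23683960-23684109, minus strand), with those before H1f2 (chr13:23738657-23738806, plus strand), from RefSeq on GRCm38.p6. Capitals mark the letters ATTTGCAT (the octamer bound by Oct-1), CCAAT or TATAAA on either strand.
H2bc8: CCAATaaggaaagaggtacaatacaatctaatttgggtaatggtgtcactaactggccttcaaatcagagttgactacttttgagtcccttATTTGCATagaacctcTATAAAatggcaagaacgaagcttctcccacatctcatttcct
H2ac6: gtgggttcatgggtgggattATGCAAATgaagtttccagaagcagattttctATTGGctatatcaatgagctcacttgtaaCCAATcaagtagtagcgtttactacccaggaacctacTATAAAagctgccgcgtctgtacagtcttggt
H1f2: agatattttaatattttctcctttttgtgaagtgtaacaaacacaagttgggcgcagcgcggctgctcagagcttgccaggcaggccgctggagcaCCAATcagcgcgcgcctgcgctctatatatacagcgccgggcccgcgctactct
The octamer begins 59 bases before the start of H2bc8 and, as the same bases on the other strand, 128 bases before that of H2ac8. In the 250 bases before the start, searched on both strands with each motif counted by itself, the octamer occurred in 9 of 46 windows from 45 histone genes, against 1.60% of 32851 promoters. These were 4 of 10 H2A windows and 5 of 13 H2B windows, with 0 in H1, H3 and H4, and windows of head to head pairs share bases. CCAAT occurred in 38 windows, against 33.8% of all promoters, and TATAAA in 24, against 12.4%. Of the 12 windows of called genes, among which H2bc6 has 2 and H2bc4 has none, 4 held the octamer, 12 CCAAT and 6 TATAAA; of the 34 windows of genes not called, 5, 26 and 18 did. A match describes these letters and is not evidence of binding.

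The annotated transcripts of the 55 genes (GENCODE M21, GRCm38, matched by gene ID) differ in how far they extend past the stem-loop. In 54 genes the annotated span was as long as in the deposited table; the exception was H2bc26-ps, a pseudogene in that annotation. For each gene only the longest protein-coding transcript was searched, or the longest where none was protein-coding. H2bc6, H2bc23 and H2bc24 have 3 annotated transcripts each and H2bc22 has 2, and their others were not searched. A stem-loop, sought as a 6-base stem around a 4-base loop with the histone consensus, was found in 38 genes. Those of H1f2, H2ac8 and H3c8, which held most of the message of their classes, of H2bc8 and of H4c8 are shown, to compare their forms, with 5 bases on each side, the stem-loop in capitals, 5′ to 3′ as DNA; the genes lie on chromosome 13.
H1f2: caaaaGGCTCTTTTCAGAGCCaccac
H2ac8: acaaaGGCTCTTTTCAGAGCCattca
H2bc8: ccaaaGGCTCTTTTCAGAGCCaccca
H3c8: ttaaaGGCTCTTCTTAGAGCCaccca
H4c8: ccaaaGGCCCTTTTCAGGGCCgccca
The first 3 carry the form found in 20 genes, H4c8 the form found in 7 genes, all H4, and H3c8 a form found in no other of the 55 genes. No stem-loop was found in the annotated transcript of H2bc4, which has 2 exons and 1156 bases over a span of 8710 bases, or in that of H2bc21.

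In 20 genes the annotated transcript runs more than 100 bases past the stem-loop (108 to 4884 bases), and 7 of these rose: H1f2, H1f3, H2ac6, H2ac8, H2bc6, H2bc8 and H2bc9. In 18 genes it ends within 100 bases (3 to 74 bases), and 1 of these rose, H3c8. In 17 genes the transcript searched has no stem-loop, 8 of them holding the coding part alone. Of the 17, 4 rose: H2bc15 with the coding part alone, and H1f5, H2bc4 and H2bc23. The summed TPM was 2.60 times higher in siHk2 for the genes with the longer end (293 TPM in siHk2, 113 TPM in siControl), 2.16 times for those ending near the stem-loop (53.3 TPM in siHk2, 24.6 TPM in siControl) and 3.35 times for those without one in the annotation (218 TPM in siHk2, 65.2 TPM in siControl). Without H2bc4 the last ratio was 1.64 (52.8 TPM in siHk2, 32.2 TPM in siControl), and without H1f2 the first was 2.44 (65.5 TPM in siHk2, 26.8 TPM in siControl). Of all rows, 2.24% were called higher. The median log2 fold change was 0.78 in the first set, 0.26 in the second and 0.21 in the third. The median level was 1.48, 0.922 and 0.915 TPM in the same order. Windows of 50 bases also found in other genes made up a median of 23.3%, 56.3% and 79.7% of a transcript. Reads are thus harder to assign in the last 2 sets. Transcripts had 539 to 7425 bases in the first set and 391 to 630 bases in the second. The difference between the sets was not tested. H1f2 runs 840 bases past its stem-loop, with the polyadenylation signal AATAAA 26 bases from its annotated end. H2ac8 runs 151 bases past its stem-loop, with that signal 28 bases from the end. AATAAA lay in the last 40 bases of 12 genes, of which 3 rose, and not there in 43 genes, of which 9 rose.

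**Figure D5:**
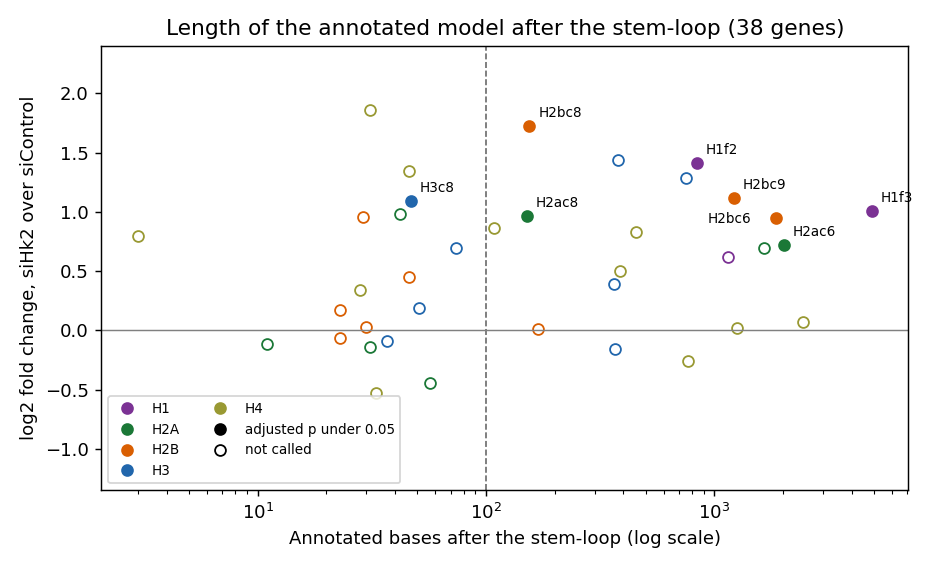
Log2 fold change of siHk2 over siControl against the number of annotated transcript bases after the stem-loop (log scale) for the 38 histone genes with a stem-loop in the annotation, coloured by class; filled points have an adjusted p under 0.05 and the dashed line marks 100 bases. To the right of the line 7 of 20 points are filled, to the left 1 of 18, and points near or below 0 occur on both sides. Genes on the left share more sequence with other genes (median 56.3% of windows of 50 bases, against 23.3% on the right).

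Histone genes share long stretches of coding sequence, so reads can be assigned to the wrong copy. Windows of 50 bases found in transcripts of more than 1 gene made up 8.54% of H1f2, 2.25% of H1f3, 30.1% of H2bc4, 43.2% of H2ac8, 49.7% of H2bc8, 54.1% of H3c8, 71.5% of H4c12 and 86.5% of H2bc15. They made up 100% of H2bc23, whose near-identical copy H2bc24 was at 0.09 TPM or less in every library, so the level given to H2bc23 may belong to either. At least 50% of the windows were shared in 24 genes, of which 3 rose. H1f4 and H2bc6 overlap by 496 bases on the same strand. The sources used here do not say how multiply mapped reads were handled, and levels of single genes with a high share are uncertain.

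Slbp, the stem-loop binding protein, was at 22.5, 23.1 and 22.3 TPM in siHk2, against 45.6, 45.9 and 47.6 TPM in siControl. It fell in siHk2 to 0.488 of the siControl mean (adjusted p = 0.00119), with tight groups, and the call held with each library left out in turn. Eri1, the exonuclease that trims histone message ends, also fell, at 33.0 ± 0.627 TPM in siHk2 and 45.2 ± 1.68 TPM in siControl (adjusted p = 0.00748; 0.0522 without siHk2 library 3). Of 29 listed genes of histone 3′ end processing and turnover, 2 fell, 0 rose and 27 were not called in limma (10 fell and 1 rose at an unadjusted p under 0.05; 1 fell without siHk2 library 3), a share near that of all rows called lower (3.06%, and 4.92% of rows averaging 1 TPM or more); next by p were Cstf2t, a cleavage stimulation factor (39.3 ± 2.02 TPM in siHk2, 46.4 ± 2.20 TPM in siControl, adjusted p = 0.0710), and Nelfe, a subunit of the elongation factor NELF (111 ± 2.84 TPM in siHk2, 129.6 ± 9.33 TPM in siControl, adjusted p = 0.0804; SD, n = 3 each). Of 9 genes in the table that serve histone gene transcription, 2 fell, beside the same shares of all rows. E2f1, a transcription factor of S phase entry, fell to 73.6 ± 3.62 TPM in siHk2, against 109.8 ± 2.32 TPM in siControl (adjusted p = 0.00445), and Ccne1, which encodes cyclin E1, to 35.3 ± 2.15 TPM in siHk2, against 52.4 ± 1.42 TPM in siControl (adjusted p = 0.00736; SD, n = 3 each). The other 7 were not called in limma (4 of the 9 fell and 0 rose at an unadjusted p under 0.05), among them Cdk2, the kinase partner of cyclin E (adjusted p = 0.168), and Hinfp, an activator of H4 genes (adjusted p = 0.198).

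Of 24 histone chaperone genes, 11 fell and 0 rose in limma (17 fell and 1 rose at an unadjusted p under 0.05), where 3.06% of all rows, and 4.92% of rows averaging 1 TPM or more, were called lower. Hjurp, the chaperone of the centromeric histone, was at 74.2 ± 2.09 TPM in siHk2 and 103.7 ± 3.00 TPM in siControl (adjusted p = 0.00472), and Tonsl, which binds new histones at forks, at 27.7 ± 0.864 TPM in siHk2 and 39.9 ± 1.43 TPM in siControl (adjusted p = 0.00632). Chaf1b, a subunit of the chromatin assembly factor CAF-1, was at 31.5 ± 0.792 TPM in siHk2 and 41.5 ± 0.287 TPM in siControl (adjusted p = 0.00776), and Ssrp1, a subunit of FACT, at 287 ± 0.835 TPM in siHk2 and 373 ± 15.4 TPM in siControl (adjusted p = 0.00893; SD, n = 3 each). Of 28 S phase genes, 21 fell and 0 rose in limma (26 fell and 0 rose at an unadjusted p under 0.05), against the same shares of all rows, with a median log2 fold change of -0.46. The licensing factor gene Cdt1 had the largest fall of that list (80.6 ± 0.834 TPM in siHk2, 128 ± 6.17 TPM in siControl, adjusted p = 0.00232); Mcm3, Mcm5 and Uhrf1, with log2 fold changes of -0.60, -0.48 and -0.59, were the others with the smallest p. Fewer passed without some libraries: 6, 7 and 2 chaperone genes without siHk2 library 1, 2 and 3 and 6 without siControl library 4, and 12 S phase genes without siHk2 library 3. The higher captured histone message thus stood beside lower message of replication genes in the same 6 libraries, and the part of either in the other was not tested.

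Replacement histones generally have polyadenylated messages that are not confined to S phase, although single genes can differ in this. Of 11 in the table, 1 rose, 2 fell and 8 were not called, where 2.24% of all rows were called higher and 3.06% lower (3.51% and 4.92% of rows averaging 1 TPM or more). H3f3a, an H3.3 gene, rose to 366 ± 14.8 TPM in siHk2, against 289 ± 14.1 TPM in siControl (adjusted p = 0.0201), while H3f3b, the other H3.3 gene, was at 335 ± 8.29 TPM in siHk2 and 374 ± 15.9 TPM in siControl (adjusted p = 0.104; SD, n = 3 each). Macroh2a1, which encodes an H2A variant with a macro domain, fell to 49.5 ± 3.37 TPM in siHk2, against 62.6 ± 1.72 TPM in siControl (adjusted p = 0.0291), and Cenpa, the centromeric H3 variant, to 61.0 ± 1.06 TPM in siHk2, against 72.1 ± 3.81 TPM in siControl (adjusted p = 0.0430). The calls of these 3 genes were each lost in 4 or more of the 6 fits without 1 library. H2aj, an H2A gene with a polyadenylated message, was at 191, 187 and 175 TPM in siHk2, against 123, 119 and 160 TPM in siControl, without overlap (adjusted p = 0.0722). H2az2 was at 74.7 ± 5.40 TPM in siHk2 and 92.3 ± 6.15 TPM in siControl (adjusted p = 0.0657; SD, n = 3 each). H2az1, the other H2A.Z gene, averaged 735 ± 10.7 TPM in siHk2 and 768 ± 84.3 TPM in siControl, H2ax, the H2A gene of the DNA damage response, 268 ± 10.5 TPM in siHk2 and 281 ± 13.4 TPM in siControl, and Macroh2a2 3.29 ± 0.421 TPM in siHk2 and 2.61 ± 0.437 TPM in siControl, with overlapping groups in each (SD, n = 3 each). Summed, the 11 genes were at 2900 to 2935 TPM in siHk2 libraries and 2907 to 3094 TPM in siControl libraries.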

How the data were processed

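Polyadenylated RNA of 6 MEF libraries (3 siHk2, 3 siControl) was sequenced on a BGI platform, per the labels' protocols. The authors deposited 1 table of TPM values, rounded to 2 decimals, and the genome build was GRCm39 per the submitters' processing notes. How reads were aligned and counted, on which annotation and whether by strand, is not stated in the sources used here. Columns of siHk2 carry their sample titles; those of siControl are numbered 4, 5 and 6, unlike the titles, and were taken as replicates of their group.

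The 22355 rows were fitted in limma 3.58.1 (R 4.3.3) on log2(TPM + 1) (empirical Bayes with a mean-variance trend, two-sided, Benjamini-Hochberg over all rows, threshold 0.05), without a filter on low values so that no histone gene was left out. In simulated data of this comparison (22355 genes), changes were planted only in genes averaging 1 TPM or more. Of these, 79% of genes changed by 1 and 47% of those changed by 0.5 on the log2 scale were recovered, and 6.67% of calls were false. Recovery below that level, where 28 of the 55 histone genes lie, was not measured. Alternatives were other pseudocounts, filters, scalings and weights, no trend, and each library left out. Histone genes averaging 1 TPM or more, those called, every replacement histone at that level and up to 4 genes by p of each other list were named. The genes and lists were chosen with earlier results of these data known. Transcripts are from GENCODE M21 and promoters from RefSeq (GRCm38.p6).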

Additional observations from a re-analysis of the deposited data

How the results depend on the processing

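Under the other pseudocounts, filters, scalings, weights and trend setting, 11 to 15 histone genes were called higher and 0 lower in limma. The log2 ratios of the class sums were recomputed under median centring and rescaling to nuclear protein-coding genes, and kept their direction. They also kept it with each library left out in turn, and were not computed under the other settings. H2bc4, H2bc23 and H2bc15 were called in every setting in which they were tested; H2bc15, H1f3 and H2ac6 fall under the filter at a mean of 1 TPM. With a pseudocount of 0.1, 1 H4 gene was called (H4c3). With a filter at a mean of 1 TPM, 1 H2A, 3 H3 and 1 H4 gene were called, 820 rows in all were higher, 4 genes of 3′ end processing were lower and 2 replacement histones higher. With a filter at 0.1 TPM, 3 H3 genes, 1 H4 gene and 2 replacement histones were higher. With quantile normalisation 1 replacement histone was lower. Without a mean-variance trend 238 rows were higher and 313 lower, 7 chaperone genes were lower, and 0 replacement histones were called either way. With library weights, 2 H3 genes, 1 H4 gene, 2 replacement histones and 851 rows in all were higher. With each library left out in turn, 4 to 14 histone genes were called higher: 0 to 3 of H1, 0 to 2 of H2A, 3 to 6 of H2B, 0 to 2 of H3 and 0 to 1 of H4. In the same fits 52 to 609 rows were higher and 97 to 712 lower. Of the lists, 1 to 2 genes of 3′ end processing, 2 to 12 chaperone genes and 12 to 18 S phase genes were lower, and 0 to 2 replacement histones were higher and 0 lower. These fits have fewer libraries; any further cause of the differences was not tested.

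A sign changed only in genes that were not called. The log2 fold change was -0.034 for H4c14 with quantile normalisation, and 0.031 for H2bc21 and 0.030 for H3c10 with library weights. With 1 library left out it lay between -0.84 and 0.030 for H2ac20, -0.30 and 0.72 for H2ac13, -0.11 and 0.045 for H2bc21, -0.081 and 0.70 for H3c11, -0.67 and 0.41 for H3c10, -0.46 and 0.042 for H3c6, -0.10 and 0.17 for H4c14, and -0.12 and 0.028 for H2az1. No paired analysis was possible because the columns of the 2 groups share no replicate number. TPM keeps no depth, so how few reads lie behind the low histone values is unknown.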
